A study of Homo sapiens with 480 samples.

Results

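Restriction factors are host proteins that block steps in the life cycle of HIV and other retroviruses. The set described here is the 10 genes IFITM1, IFITM2, IFITM3, SERINC5, TRIM5, MX2, APOBEC3C, APOBEC3G, SAMHD1 and BST2. They were chosen by name from the 20302 features measured, with earlier results of these data known, and each matched 1 row. IFITM proteins hinder the fusion of virus and cell, and SERINC5 lowers the infectivity of virions when it is built into them. TRIM5 and MX2 act on the incoming capsid, APOBEC3 proteins deaminate viral DNA during reverse transcription, SAMHD1 breaks down the deoxynucleotides that reverse transcription needs, and BST2 tethers new virions to the cell surface. Many of these genes are induced by interferon, and HIV counters several of them with its accessory proteins Vif, Vpu and Nef.

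The cells were single sorted cells of 2 human lines. Jurkat is a leukaemic CD4 T cell line. J-Lat A2 is 1 clone derived from it that carries an integrated HIV construct with the viral promoter, Tat and a green fluorescent reporter but no accessory genes, so no viral antagonist of these factors was present in any group. Each line was kept for 24 h with 0.1% v/v DMSO (the vehicle), 1 uM of the histone deacetylase inhibitor SAHA (vorinostat) or the phorbol ester PMA, which activates protein kinase C, at 1 ug/mL. No group was given interferon or infected.

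Of 480 wells on 5 plates, 410 were kept, with 19756 to 984418 counts each. Counts were added over the kept wells of a group and batch, which gave 9 sums. J-Lat A2 with DMSO, J-Lat A2 with SAHA and Jurkat with DMSO had a sum in each of 2 batches, and the other groups had 1 sum, from the second batch. The sums held 4682181 to 36603816 counts. For J-Lat A2 with SAHA, 67 of 120 wells were kept in the first batch, with a median of 284001 counts against 472011 with DMSO. In the second batch the medians were 555658 and 550336. All 14 markers of the T lineage were found in every group. Their summed level was 4489 to 5346 CPM (counts per 1000000) with DMSO, 906 to 1257 with SAHA and 13845 to 13982 with PMA. Marker levels, and levels in single wells below, were not scaled by TMM, whereas the levels of batch and plate sums below were. Of the B cell markers 5 of 6 were at 0 in every group, and the one found, CD79A, gave 61.9 to 65.5 CPM in J-Lat A2 with DMSO, 3.71 to 8.20 with SAHA and 88.9 with PMA. Myeloid, NK, epithelial and stromal markers summed to at most 14.6 CPM per list, and CSF1R, FCGR3A, GNLY, NCR1, EPCAM, COL1A2 and DCN were at 0 throughout. The part of these shifts in the results on the restriction factors was not tested.

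Interferon acts on promoters through the interferon-stimulated response element, whose core was searched as GAAANNGAAA on both strands. RefSeq promoters (GRCh38.p14, 250 bases before to 50 after the start) were in hand for 6 of the 10 genes: IFITM1, IFITM3, SERINC5, TRIM5, SAMHD1 and BST2. The letters occurred in 4 of the 6, against 3.57% of all 35116 promoters of that table. They were absent from these windows of SERINC5 and SAMHD1, and the windows of IFITM2, MX2, APOBEC3C and APOBEC3G were not analysed here. The stretches that hold the match are shown for IFITM1, IFITM3, BST2 and TRIM5. The match is in capitals, each stretch runs 5′ to 3′ on the gene's strand, and for TRIM5 the match lies on the other strand, so that the capitals read TTTCNNTTTC.
IFITM1, first match: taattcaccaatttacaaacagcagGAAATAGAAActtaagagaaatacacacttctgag
IFITM1, second match: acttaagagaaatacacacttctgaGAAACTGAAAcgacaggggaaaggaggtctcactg
IFITM3, first match: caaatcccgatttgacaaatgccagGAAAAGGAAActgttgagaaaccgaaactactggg
IFITM3, second match: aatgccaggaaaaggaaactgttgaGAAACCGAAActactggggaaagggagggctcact
BST2, first match: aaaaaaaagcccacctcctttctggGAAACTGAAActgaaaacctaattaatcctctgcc
TRIM5: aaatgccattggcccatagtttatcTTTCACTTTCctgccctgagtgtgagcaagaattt

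The IFITM1 stretches lie at chr11:313975-314034 and chr11:314009-314068 on the plus strand, and their matches begin 40 and 6 bases before the annotated start. Those of IFITM3 lie at chr11:320878-320937 and chr11:320861-320920 on the minus strand, and begin 52 and 35 bases before the start. IFITM1 and IFITM3 thus each held a pair of matches close to the start. In BST2 (chr19:17405726-17405785, minus strand) the match begins 130 bases before the start, and a second one overlaps it 6 bases further on. In TRIM5 (chr11:5685067-5685126, minus strand) it begins 27 bases before the start. A match of letters describes the sequence and does not show that a factor binds there.

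SAHA lowered IFITM1, IFITM2 and MX2 in J-Lat A2, and APOBEC3G was higher with PMA in both lines. The calls of MX2 and APOBEC3G rested on few wells and were lost under several alternatives given below. Of the 10 genes 9 passed the filter on low counts, because SAMHD1 had no read in any well. With SAHA in J-Lat A2, 3 of the 9 changed, all of them downward (IFITM1, IFITM2 and MX2), where 8.43% of the 13558 tested genes changed and 4.90% fell (edgeR quasi-likelihood test, Benjamini-Hochberg adjusted p under 0.05). The median log2 change of the 9 was -2.51, against 0.12 over all tested genes. That median is the value of IFITM3, which did not pass. IFITM1, IFITM2 and IFITM3, whose reads may be divided among them, count as 3 of the 9. APOBEC3G counts as lower from DMSO reads in 1 well. The fitted values were negative for all but TRIM5 (1.67), and that of BST2 was -0.14. With PMA, 1 of 9 changed in J-Lat A2, APOBEC3G, which was higher (1.98% of all genes changed and 1.18% rose). The same gene was the 1 of 9 that changed with PMA in Jurkat, again higher (2.27% of all genes changed and 1.17% rose). The median log2 change with PMA was 0.59 over the 9 genes and 0.04 over all in J-Lat A2, and 0.90 over the 9 and 0.07 over all genes in Jurkat. Both PMA comparisons rest on 1 sum each, assumed to vary like the groups with both batches.

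With SAHA in Jurkat, none of the 9 passed edgeR's test, where 4.22% of all genes did. At an unadjusted p under 0.05 the test took 1 of 9, against 17.2% of all genes, and DESeq2 called 1 of 9 (IFITM2), against 12.2% of the 10666 genes to which it gave an adjusted p. The median log2 change was -0.98 over the 9 and 0.11 over all genes. With genes that had no count in a group set to a floor of 3 counts, the median over the 9 was -0.89. Both medians count APOBEC3G as lower, though its Jurkat DMSO reads all came from the first batch, which had no Jurkat wells with SAHA. The J-Lat A2 and Jurkat cells with DMSO differed in none of the 9 by edgeR, where 0.398% of all genes did. At an unadjusted p under 0.05 it took 3 of 9 between the lines, against 9.29% of all genes, and DESeq2 called IFITM1 and BST2, against 3.80% of 11192 genes.

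**Figure D1:**
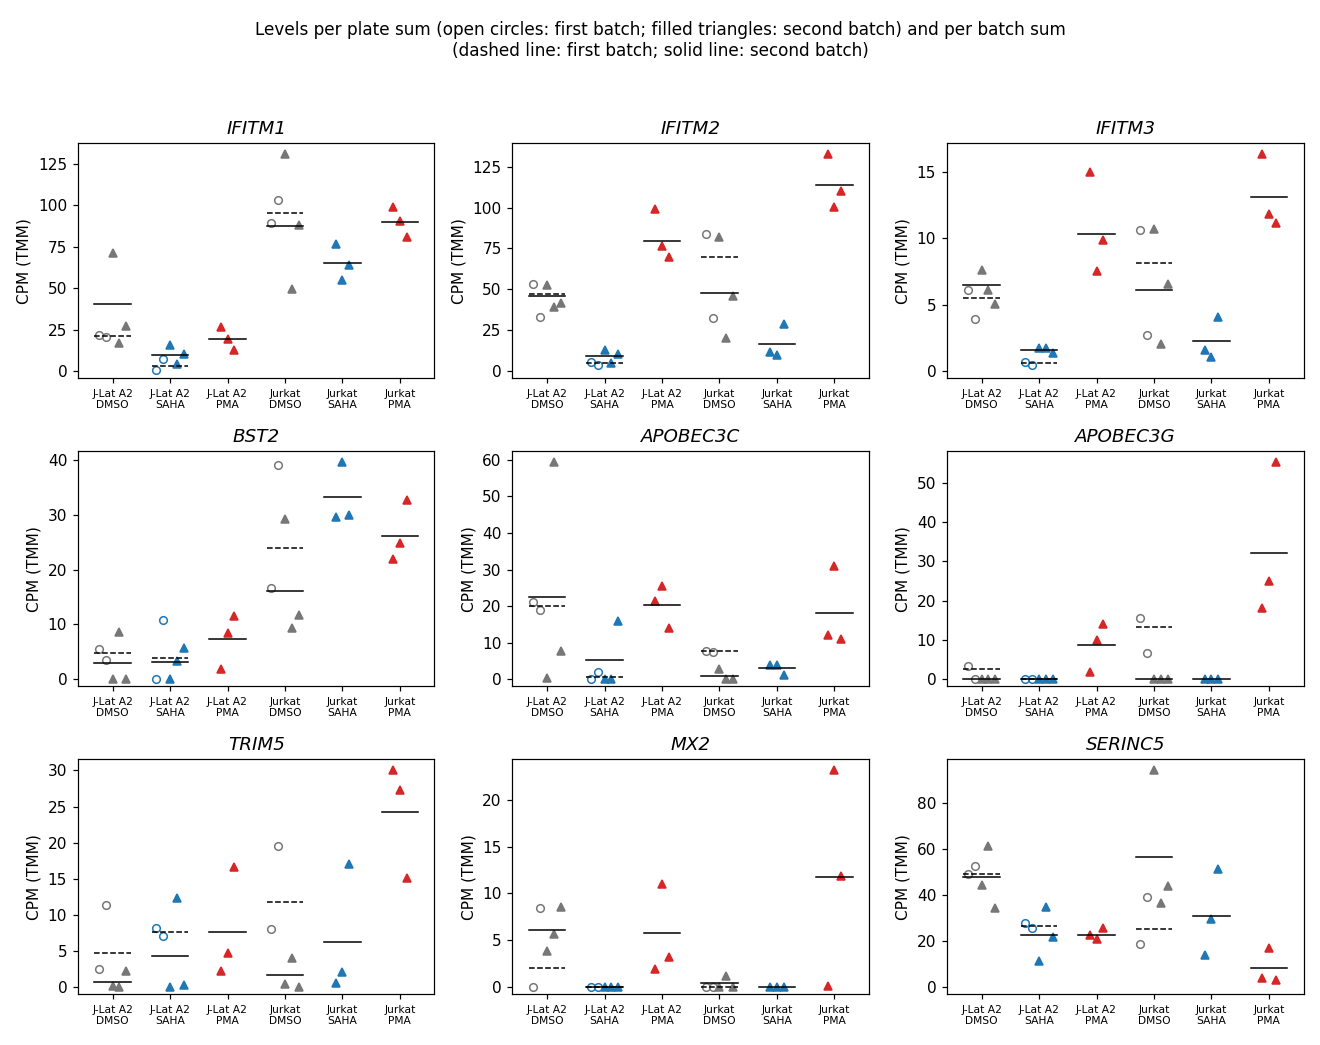
Level of each restriction factor with reads (CPM, linear axes) in each plate sum (points) and batch sum (lines) of the 6 groups. IFITM2 lies at 3.63 to 12.6 CPM on the 5 plates of J-Lat A2 with SAHA, below all 5 plates with DMSO, and MX2 is at 0 on every SAHA plate.

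IFITM1, IFITM2 and IFITM3 are small membrane proteins whose genes lie side by side on chromosome 11. In GENCODE release 29 (GRCh38), IFITM1 spans chr11:313506-315272 and IFITM2 chr11:307631-315272, both on the plus strand, so that the 1767 bases of IFITM1 lie wholly within the span of IFITM2. IFITM3 lies at chr11:319669-327537 on the minus strand. Their sequences are similar, and 25.4% of the values above 0 of IFITM1, 62% of IFITM2 and 76.7% of IFITM3 were not whole numbers, as happens where a read that matches several genes is divided among them. How a change is divided between the members is therefore less certain than the change of their sum.

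IFITM1 stood at 20.9 and 40.8 CPM in the 2 batches of J-Lat A2 with DMSO, 2.94 and 9.88 with SAHA and 19.2 with PMA. In Jurkat it stood at 95.3 and 87.6 CPM with DMSO, 65.5 with SAHA and 90.1 with PMA. SAHA gave the lowest J-Lat A2 values, and every Jurkat sum was above every J-Lat A2 sum. The SAHA change in J-Lat A2 was -2.35 ± 0.45 on the log2 scale (SE, adjusted p = 0.0113), which is 5.11-fold lower. It was lower on 5 of 5 plates, at 0.538 to 15.8 CPM against 16.98 to 71.4, and these ranges did not overlap. How often plates of 2 groups do not overlap over all genes was not counted, here or below.

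IFITM2 stood at 47.4 and 45.9 CPM in J-Lat A2 with DMSO, 4.82 and 9.28 with SAHA and 79.7 with PMA. Jurkat cells gave 69.6 and 47.5 CPM with DMSO, 16.6 with SAHA and 113.6 with PMA. In each line SAHA gave the lowest values and PMA the highest. The SAHA change in J-Lat A2 was -2.74 ± 0.42 on the log2 scale (adjusted p = 0.00401), 6.67-fold lower, and it was lower on 5 of 5 plates. In Jurkat the SAHA change was -1.88 ± 0.55 (adjusted p = 0.0972), lower on 3 of 3 plates. The PMA change missed the threshold in both lines. It was 0.72 ± 0.49 in J-Lat A2 (adjusted p = 0.686) and 0.90 ± 0.51 in Jurkat (adjusted p = 0.515). The PMA and DMSO plates did not overlap in either line, but the 3 PMA plates of each line were of 1 batch.

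IFITM3 stood at 5.51 and 6.48 CPM in J-Lat A2 with DMSO, 0.597 and 1.60 with SAHA and 10.3 with PMA. The Jurkat sums were at 8.17 and 6.13 CPM with DMSO, 2.25 with SAHA and 13.1 with PMA. The order across the groups was that of IFITM2, with SAHA lowest and PMA highest in each line. Its SAHA change in J-Lat A2 was of the same size, -2.51 ± 1.07, but did not pass (adjusted p = 0.215), with values lower on 5 of 5 plates and no overlap. In Jurkat it was -1.90 ± 1.43 (adjusted p = 0.595).

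Added together, the 3 genes gave 73.9 and 93.2 CPM in J-Lat A2 with DMSO, 8.35 and 20.8 with SAHA and 109.3 with PMA. In Jurkat the sum was 173.1 and 141.3 CPM with DMSO, 84.3 with SAHA and 216.8 with PMA. With SAHA in J-Lat A2 the sum changed by -2.58 ± 0.35 (log2 and SE, adjusted p = 0.0024), a value that does not depend on how reads were divided among the 3. In Jurkat the change of the sum was -1.15 ± 0.46 (adjusted p = 0.223). The share of IFITM1 in the sum was 28.3% and 43.8% in J-Lat A2 with DMSO and 35.2% and 47.6% with SAHA. In Jurkat it was 55.1% and 62% with DMSO, 77.7% with SAHA and 41.6% with PMA. The share was thus highest in the Jurkat sum with SAHA. Whether the 3 genes differed in their change was not tested.

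**Figure D2:**
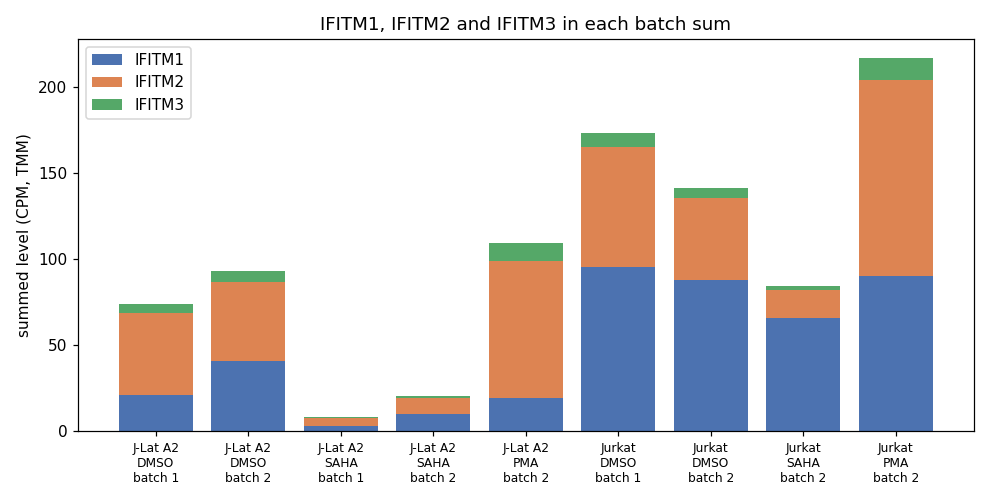
Summed level (CPM, bars from 0) of IFITM1, IFITM2 and IFITM3 in each of the 9 batch sums. The J-Lat A2 sums with SAHA reach 8.35 and 20.8 CPM, and IFITM1 makes up 77.7% of the Jurkat sum with SAHA.

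IFITM1 and IFITM2 also passed without the shallow first-batch SAHA wells. Plates of 1 batch may share a culture, so p-values with plates as units measure only the spread between plates. Within the second batch, with the 3 plates as units, the SAHA change in J-Lat A2 was -1.85 for IFITM1 (adjusted p = 0.0116) and -2.31 for IFITM2 (adjusted p = 0.00394). Without the first-batch SAHA sum, where many wells were lost, it was -1.81 (adjusted p = 0.0484) and -2.19 (adjusted p = 0.0135). In bulk sums like these, fewer cells with transcripts and fewer transcripts per cell cannot be told apart, but the wells show the share with a read. An IFITM2 read was found in 72 of 94 wells of J-Lat A2 with DMSO (76.6%, 95% Clopper-Pearson interval 66.7% to 84.7%). It was found in 34 of the 67 and 68 SAHA wells of the batches (25.2%, 18.1% to 33.4%) and in 65 of the 79 PMA wells (82.3%, 72.1% to 90.0%). For IFITM1 the wells with a read were 42 (44.7%, 34.4% to 55.3%), 21 (15.6%, 9.89% to 22.8%) and 23 (29.1%, 19.4% to 40.4%) of these. With SAHA both the share of wells and the level in wells with a read were lower for IFITM2, at a median of 20.2 against 44.2 CPM. For IFITM1 the medians in wells with a read were 36 and 42.4 CPM.

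SERINC5 encodes a membrane protein that impairs virions from within, and that Nef removes from the surface (chr5:80111651-80256079, minus strand). It stood at 49 and 48 CPM in J-Lat A2 with DMSO, 26.7 and 22.9 with SAHA and 22.5 with PMA. The Jurkat values were 25.4 and 56.7 CPM with DMSO, 31.1 with SAHA and 8.17 with PMA. Both agents gave lower values than DMSO in J-Lat A2, and in Jurkat PMA gave the lowest. With PMA in Jurkat the change was -2.43 ± 0.63 on the log2 scale, which did not pass edgeR's test (adjusted p = 0.0917). Its 3 plates, at 3.24 to 16.8 CPM, lay below all 5 DMSO plates, at 18.6 to 94.5. It passed by DESeq2 (-2.42, adjusted p = 0.00498) and within the second batch with plates as units (-3.14, adjusted p = 0.0187). Plates of 1 batch may share a culture, so the p-value with plates as units measures only the spread between plates. With PMA in J-Lat A2 the change was -1.26 ± 0.61 (adjusted p = 0.471), and with SAHA it was -0.96 ± 0.45 in J-Lat A2 (adjusted p = 0.263) and -0.50 ± 0.57 in Jurkat (adjusted p = 0.771). A SERINC5 read was in 67.0% of J-Lat A2 wells with DMSO, 29.6% with SAHA and 31.6% with PMA, and in 83.3%, 63.9% and 27.8% of Jurkat wells.

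TRIM5 encodes a ubiquitin ligase that binds incoming capsids (chr11:5663557-5938619, minus strand, a span that also holds TRIM22 and several olfactory receptor genes). It stood at 4.67 and 0.772 CPM in J-Lat A2 with DMSO, 7.67 and 4.28 with SAHA and 7.66 with PMA. In Jurkat it stood at 11.7 and 1.73 CPM with DMSO, 6.31 with SAHA and 24.2 with PMA. The DMSO values of the 2 batches were further apart than most groups were from each other. The PMA change was 2.99 ± 1.20 in J-Lat A2 (adjusted p = 0.336) and 3.39 ± 1.22 in Jurkat (adjusted p = 0.229), higher on 3 of 3 plates in each line, and neither passed. A TRIM5 read was in 18.1%, 8.89% and 26.6% of J-Lat A2 wells under DMSO, SAHA and PMA, and in 33.3%, 13.9% and 47.2% of Jurkat wells. With wells thinned to 100000 counts the shares were 7.69%, 8.55% and 19.5% in J-Lat A2, where DMSO no longer lay above SAHA, and 16.7%, 13.9% and 36.1% in Jurkat. In J-Lat A2 with SAHA, 1 well held 33.9% of all TRIM5 counts of its group.

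MX2 encodes an interferon-induced GTPase that blocks the nuclear entry of HIV (chr21:41361943-41409390, plus strand). It stood at 2.03 and 6.07 CPM in J-Lat A2 with DMSO, at 0 in both batches with SAHA and at 5.73 with PMA. Jurkat cells gave 0 and 0.462 CPM with DMSO, 0 with SAHA and 11.8 with PMA. No SAHA well of either line held an MX2 read: none of the 67 and 68 J-Lat A2 wells, which allows a share of up to 2.22%, and 0 of 36 Jurkat wells, which allows up to 8.33%. With DMSO 8 of 94 J-Lat A2 wells (8.51%, 3.75% to 16.1%) and 1 of 30 Jurkat wells held one, and with PMA 6 of 79 and 7 of 36. For MX2 in J-Lat A2, the pooled DMSO level was 73.2 times a floor of 3 counts over the SAHA group. In the second batch it was 70.9 times that floor. The DMSO reads came from 8 wells in all, so these ratios are not lower limits of the fall. The edgeR test over both batches gave an adjusted p of 0.043. The call rested on few wells and was lost when either J-Lat A2 DMSO sum (adjusted p = 0.148 and 0.135) or either J-Lat A2 SAHA sum (0.117 and 0.265) was left out. With PMA, MX2 missed the threshold in J-Lat A2 (adjusted p = 1) and in Jurkat (adjusted p = 0.335), where the plates ran from 0.152 to 23.1 CPM.

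APOBEC3C and APOBEC3G are cytidine deaminases of 1 gene cluster on chromosome 22, 56652 bases apart, and APOBEC3G is the member best known for mutating HIV DNA when Vif is absent. APOBEC3C (chr22:39014083-39020352, plus strand, overlapped by ENSG00000284554 on the same strand) stood at 20.1 and 22.5 CPM in J-Lat A2 with DMSO, 0.682 and 5.37 with SAHA and 20.3 with PMA. The Jurkat sums were at 7.75 and 0.809 CPM with DMSO, 3.05 with SAHA and 18.2 with PMA. SAHA gave the lowest values in J-Lat A2, with a change of -2.84 ± 1.24 that did not pass (adjusted p = 0.225). DESeq2 called it (-2.83, adjusted p = 0.0481), and so did edgeR without either Jurkat DMSO sum (adjusted p = 0.0327 and 0.0344). The plates overlapped: 1 DMSO plate was at 0.278 CPM, from 2 counts, and 1 SAHA plate held 15.9 CPM, of which 59% came from 1 well. Reads were in 28 J-Lat A2 wells under DMSO (29.8%, 20.8% to 40.1%), 7 under SAHA (5.19%, 2.11% to 10.4%) and 21 under PMA (26.6%, 17.3% to 37.7%). The level in J-Lat A2 wells with an APOBEC3C read was of similar size, at a median of 52.5 CPM with DMSO, 40.6 with SAHA and 63.9 with PMA, so that the groups differed mainly in the share of wells.

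APOBEC3G (chr22:39077005-39087743, plus strand) stood at 2.53 and 0 CPM in J-Lat A2 with DMSO, 0 in both batches with SAHA and 8.75 with PMA. The Jurkat values were 13.2 and 0 CPM with DMSO, 0 with SAHA and 32.1 with PMA. In the second batch, the only one with PMA, reads were confined to the PMA groups. There 9 of 79 J-Lat A2 wells with PMA (11.4%, 5.34% to 20.5%) and 13 of 36 Jurkat wells with PMA (36.1%, 20.8% to 53.8%) held a read, on all 3 plates of each line. With DMSO 0 of 35 J-Lat A2 wells held one, which allows up to 8.57%, and 0 of 18 Jurkat wells, which allows up to 16.7%. The APOBEC3G level with PMA was 56.7 times a floor of 3 counts over the second-batch DMSO group in J-Lat A2 (edgeR adjusted p = 0.044). In Jurkat it was 92.5 times that floor (adjusted p = 0.0462). The PMA reads came from 9 and 13 wells, so these ratios are not lower limits of the change.

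In the first batch, by contrast, 1 of 59 J-Lat A2 wells and 3 of 12 Jurkat wells with DMSO held APOBEC3G reads, and the Jurkat level of 13.2 CPM was less far from the 32.1 CPM with PMA. Both calls were lost under several alternatives. With DESeq2, which kept the batch term, the adjusted p was 0.491 in J-Lat A2 and 0.438 in Jurkat. Without the batch term the changes were 2.77 in J-Lat A2 (adjusted p = 0.75) and 2.30 in Jurkat (adjusted p = 0.769). Within the second batch with plates as units the adjusted p was 0.0525 in J-Lat A2 and 0.0328 in Jurkat. Leaving out a DMSO sum of either line raised it to between 0.0519 and 0.186. Of the APOBEC3G values above 0, 53.8% were not whole, so that reads may be shared with other APOBEC3 genes. With SAHA no well of either line held a read, under the same limits as for MX2. The pooled DMSO level was 28.2 times the floor of 3 counts over the SAHA group in J-Lat A2 (edgeR adjusted p = 0.085). All 66 of its counts came from 1 well. In Jurkat it was 29.3 times the floor (adjusted p = 1), with all DMSO reads from the first batch, which had no Jurkat wells with SAHA. Neither ratio is a lower limit of a fall. By wells, 1.06% of J-Lat A2 wells with DMSO against a limit of 2.22% with SAHA does not show one.

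SAMHD1 (chr20:36889773-36951901, minus strand) had 0 counts in all 410 kept wells and in the wells left out. The limits that a count of 0 allows were 3.19% of wells in J-Lat A2 with DMSO, 2.22% with SAHA and 3.80% with PMA. In Jurkat they were 10.0%, 8.33% and 8.33%. Neither agent was thus followed by detectable SAMHD1 transcripts at this depth.

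BST2, also called tetherin (chr19:17402939-17405648, minus strand), is the factor that Vpu removes. It stood at 4.86 and 2.88 CPM in J-Lat A2 with DMSO, 3.79 and 3.05 with SAHA and 7.27 with PMA. In Jurkat it stood at 23.9 and 16.1 CPM with DMSO, 33.3 with SAHA and 26.2 with PMA. Every Jurkat sum was above every J-Lat A2 sum. The change between the lines with DMSO was -2.38 ± 0.66 (J-Lat A2 minus Jurkat), which did not pass edgeR's test (adjusted p = 0.216) and passed with DESeq2 (-2.41, adjusted p = 0.0154). All 5 J-Lat A2 plates, at 0 to 8.57 CPM, lay below all 5 Jurkat plates, at 9.32 to 39.1. A BST2 read was found in 6 of 94 J-Lat A2 wells (6.38%, 2.38% to 13.4%) and 20 of 30 Jurkat wells (66.7%, 47.2% to 82.7%) with DMSO. In the wells that held one, the median was 77.5 CPM in J-Lat A2 and 24.4 CPM in Jurkat. The lower J-Lat A2 sums thus came with fewer wells with a read and not with a lower level in those wells. Under SAHA 8.89% of J-Lat A2 wells and 69.4% of Jurkat wells held a read, with changes of -0.14 ± 0.63 (adjusted p = 0.954) and 1.04 ± 0.79 (adjusted p = 0.6). Under PMA 10.1% and 50.0% of wells held one, and the changes were 1.22 ± 0.80 (adjusted p = 0.666) and 0.69 ± 0.80 (adjusted p = 0.838).

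**Figure D3:**
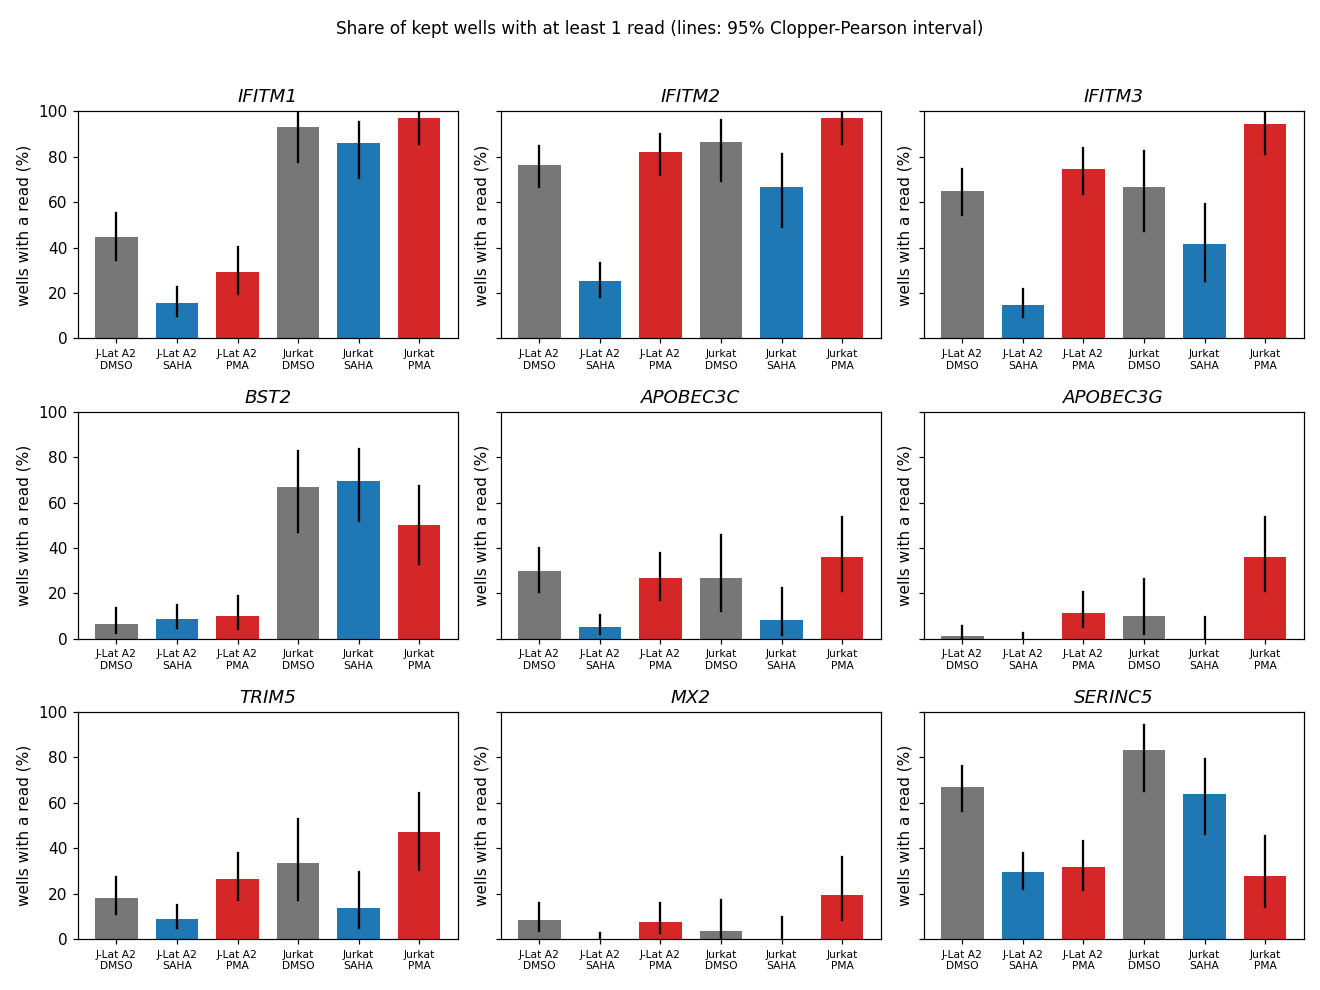
Share of kept wells with at least 1 read of each restriction factor (bars from 0%) in the 6 groups, with 95% Clopper-Pearson intervals that cover counting error only. BST2 reads are in 66.7% of Jurkat and 6.38% of J-Lat A2 wells with DMSO, and APOBEC3G and MX2 have no bar with SAHA in either line.

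IFITM1 was the other gene that DESeq2 called between the lines, with an edgeR change of -1.72 ± 0.44 with DMSO (adjusted p = 0.17 by edgeR and 0.00848 by DESeq2). It was lower in J-Lat A2 on 5 of 5 plates, but the plates overlapped, at 16.98 to 71.4 CPM against 49.5 to 131.04. A read was found in 28 of 30 Jurkat wells with DMSO (93.3%, 77.9% to 99.2%), against 44.7% in J-Lat A2. Because J-Lat A2 is 1 clone, a difference from Jurkat may belong to the clone or to the construct, and these cannot be told apart.

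Whether the lines answered an agent differently was tested by the interaction. None of the 9 genes passed edgeR's test for SAHA, where 0.00738% of all genes did, or for PMA, where 0.0221% did. At an unadjusted p under 0.05 it took 0 of 9 in each case, against 3.77% and 3.39% of all genes, and DESeq2 called none. The SAHA changes of the lines differed by -1.38 ± 0.69 for IFITM1 (J-Lat A2 minus Jurkat, adjusted p = 1) and by -0.86 ± 0.63 for IFITM2 (adjusted p = 1). The SAHA calls in J-Lat A2 are therefore not shown to be particular to that line. For APOBEC3G the PMA interaction gave an adjusted p of 1.

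**Figure D4:**
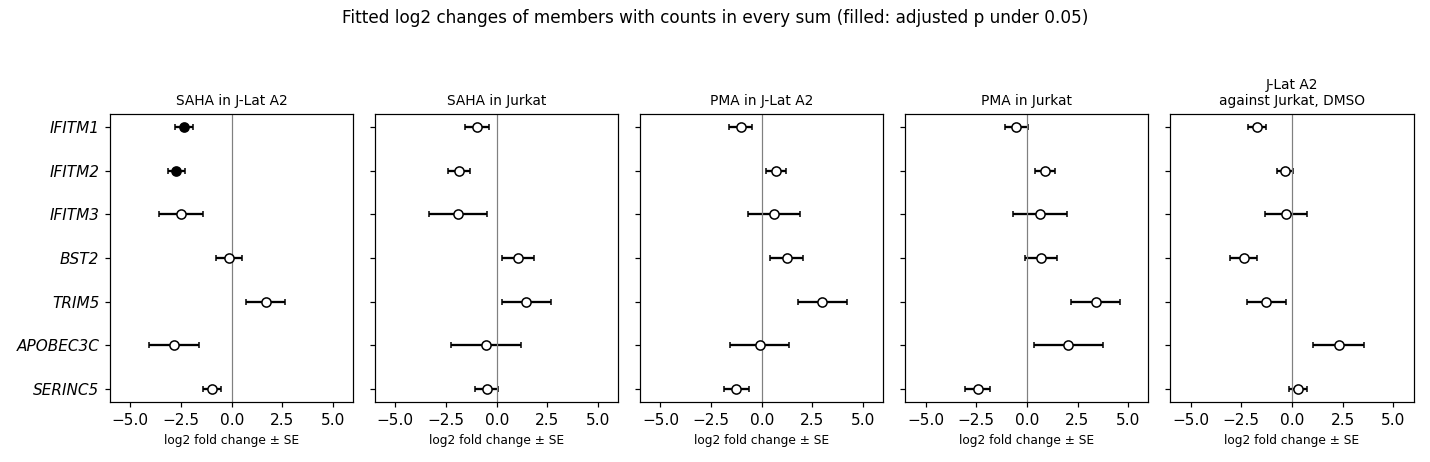
Fitted log2 changes with SE (horizontal lines) for the 7 restriction factors with counts in every sum, in the 4 comparisons of an agent with DMSO and between the lines. Filled points passed at an adjusted p under 0.05, and they are IFITM1 and IFITM2 with SAHA in J-Lat A2.

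The number of the 10 genes with a read in a well had a median of 3 in J-Lat A2 with DMSO, 3 with PMA and 1 with SAHA. In Jurkat the medians were 5, 5 and 4. With SAHA 60 J-Lat A2 wells (44.4%) held no read of any of the 10, against 4 of 94 with DMSO (4.26%) and 5 of 79 with PMA (6.33%). In Jurkat this was true of 1 of 36 wells with SAHA and of none with DMSO or PMA. The lower depth of the first-batch SAHA wells bears on such counts, and the number of genes per well was not computed at equal depth. The shares of single genes were computed again with each well thinned to 100000 counts. This left out 18 SAHA, 3 DMSO and 2 PMA wells of J-Lat A2 that were shallower. IFITM2 reads were then in 75.8%, 18.8% and 80.5% of wells with DMSO, SAHA and PMA, and IFITM1 reads in 41.8%, 15.4% and 28.6%. IFITM3, a gene of few reads per well, moved from 64.9% to 34.1% with DMSO, from 14.8% to 5.98% with SAHA and from 74.7% to 54.5% with PMA, and in Jurkat with SAHA from 41.7% to 5.56%.

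**Figure D5:**
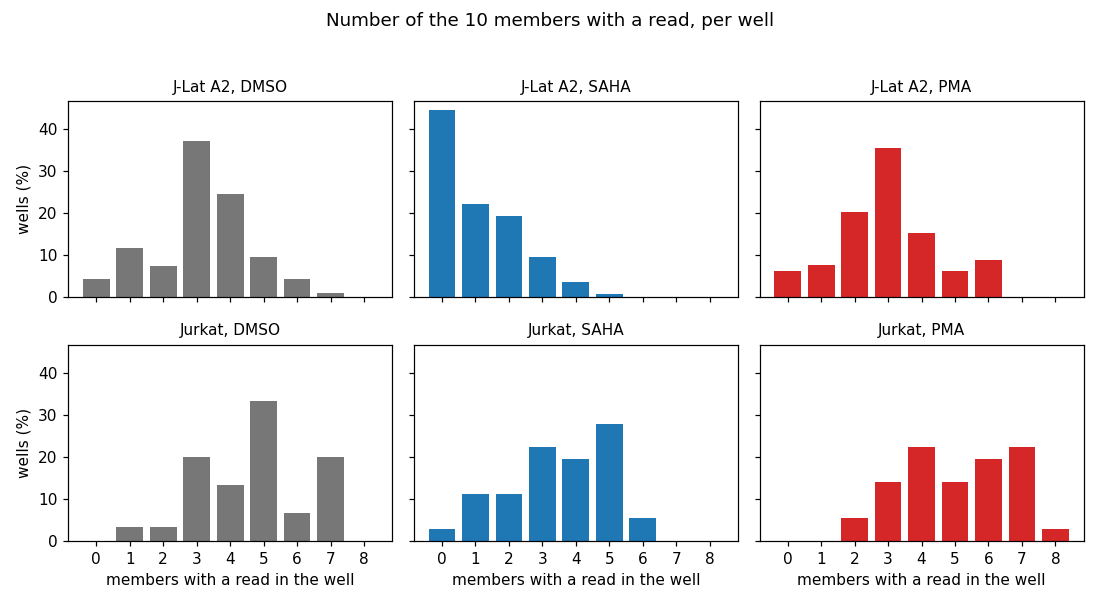
Share of wells (bars from 0%) by the number of the 10 restriction factors with a read, in each group. In J-Lat A2 with SAHA 44.4% of wells are at 0, against 4.26% with DMSO. The wells were not thinned to equal depth.

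Across the wells of a group the closest pair was IFITM2 and IFITM3, the genes most subject to divided reads. Spearman's rho between them was 0.79 in J-Lat A2 with DMSO, 0.72 with SAHA and 0.87 with PMA, and 0.77, 0.68 and 0.57 in Jurkat, and 95% to 100% of the wells with an IFITM3 read in a group also held an IFITM2 read. BST2 and APOBEC3C reached 0.57 in Jurkat with PMA and lay between 0.12 and 0.41 in the 4 other groups where both genes had a read in at least 5 wells. Spearman's rho between IFITM1 and IFITM2 was 0.12 over 94 J-Lat A2 wells with DMSO, 0.25 over the 67 and 68 with SAHA and 0.09 over 79 with PMA, and 0.37, 0.28 and 0.15 in Jurkat over 30, 36 and 36 wells. These wells share library batches and differ in depth, and in counts this sparse such values are descriptions. Against the transcript of the integrated construct, which had a read in 72.6% of J-Lat A2 wells under SAHA and 69.6% under PMA, rho ran from -0.11 to 0.17 over the 7 factors found in at least 5 SAHA wells, and from -0.11 to 0.14 over 9 factors with PMA.

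The other genes of the antiviral system moved in both directions, and their counts are to be read against the shares of all genes and the medians given above. Of 31 tested further restriction factors, SAHA in J-Lat A2 lowered 3 and raised 1, with a median log2 change of 0.13. SELPLG, the adhesion ligand PSGL-1 that keeps virions from attaching, went from 119.01 ± 16.6 to 12.2 ± 2.56 CPM (SD, n = 2 sums each; log2 change -3.30 ± 0.29, adjusted p = 0.000266). IFI16, a nuclear DNA sensor, went from 441.4 ± 48 to 105.8 ± 33.8 CPM (-2.09 ± 0.19, adjusted p = 0.000266). EIF2AK2, the double-stranded RNA-activated kinase PKR, changed by -2.14 ± 0.37 (adjusted p = 0.00677), and SERINC3, the close relative of SERINC5, by 1.01 ± 0.21 (adjusted p = 0.0179). In Jurkat SAHA lowered 2 of the 31, SELPLG (-3.49 ± 0.41) and IFI16 (-1.83 ± 0.25), and raised 1, SERINC3 (1.10 ± 0.26, adjusted p = 0.0484), with a median of 0.01. SERINC3 thus rose in both lines with SAHA, whereas SERINC5 did not pass in either.

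With PMA in J-Lat A2, 2 of the 31 rose and 1 fell, with a median of 0.39. SERINC3 rose (1.29 ± 0.27, adjusted p = 0.0444) and SELPLG fell (-2.43 ± 0.38, adjusted p = 0.0118). GBP2, an interferon-induced GTPase that hinders the processing of viral envelope proteins, was higher in both lines (adjusted p = 0.029 in J-Lat A2 and 0.0275 in Jurkat). It was the 1 of 31 called with PMA in Jurkat, where the median was -0.24. GBP2 was below the level set for naming genes and is named after its values were seen.

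Of 28 further interferon-stimulated genes, SAHA in J-Lat A2 raised 2 and lowered 2, with a median of -0.37. IFIT1, which binds foreign RNA caps, went from 8.68 ± 5.21 to 60.8 ± 0.764 CPM (2.99 ± 0.49, adjusted p = 0.00576) and IFI6, a membrane protein of the same response, from 21.3 ± 0.751 to 59.6 ± 9.56 CPM (1.49 ± 0.36, adjusted p = 0.0311). LGALS3BP, a secreted lectin-binding glycoprotein, changed by -2.26 ± 0.50 (adjusted p = 0.022) and PSMB8, an immunoproteasome subunit, by -1.79 ± 0.18 (adjusted p = 0.000419). In Jurkat 3 rose and 1 fell, with a median of -0.59. IFIT1 (2.92 ± 0.59) and IFI6 (2.06 ± 0.46) rose there too, as did OASL, named after its values were seen (adjusted p = 0.0282), and PSMB8 fell (-1.76 ± 0.24). In J-Lat A2, IFITM1, IFITM2 and MX2, which belong to the same interferon response, were thus lower with SAHA while IFIT1 and IFI6 were higher. With PMA none of the 28 passed edgeR's test in either line, with medians of -0.02 and 0.58.

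Of 22 tested interferon receptors, signalling proteins and sensors, SAHA in J-Lat A2 raised 1 and lowered 2, with a median of 0.14. IFNGR1, a chain of the interferon gamma receptor, changed by 1.34 ± 0.20 (adjusted p = 0.00341), USP18, a brake on interferon signalling, by -1.90 ± 0.35 (adjusted p = 0.0101) and IRF1, a transcription factor that binds the response element, by -1.39 ± 0.37 (adjusted p = 0.0461). In Jurkat 1 rose and 2 fell, with a median of 0.42: IFNGR1 (2.04 ± 0.24), USP18 (-3.24 ± 0.52) and the RNA sensor IFIH1, named after its values were seen (adjusted p = 0.0205). With PMA the 1 gene called was IFNGR1 in J-Lat A2 (1.25 ± 0.24, adjusted p = 0.0318), and the medians were 0.73 in J-Lat A2 and 0.60 in Jurkat.

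A further list held proteins that HIV's antagonists borrow or that bind its capsid. Of 17 tested, SAHA in J-Lat A2 lowered 1, CUL4A, the cullin used by Vpx and Vpr (-1.47 ± 0.30, adjusted p = 0.0159). PMA in J-Lat A2 raised 1, CBFB, the partner of Vif, from 24.7 ± 2.11 CPM with DMSO to 171.2 CPM (2.66 ± 0.42, adjusted p = 0.0117). No gene of this list passed in Jurkat with either agent by edgeR, and the medians ran from -0.31 to -0.21 over the 4 comparisons of an agent with DMSO. CBFB and APOBEC3G, the target of Vif, were thus both called higher with PMA in J-Lat A2. The APOBEC3G call was lost under several alternatives, and a link between the 2 genes was not tested.

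Of 14 regulators of SAMHD1 and enzymes of deoxynucleotide supply, SAHA lowered TYMS, which makes thymidylate, in J-Lat A2 (from 1214 ± 157.2 to 446 ± 39.3 CPM, -1.44 ± 0.14, adjusted p = 0.00034) and in Jurkat (-1.29 ± 0.18, adjusted p = 0.00544). It raised the cyclin-dependent kinase inhibitor CDKN1A in both (adjusted p = 0.0242 and 0.0175; named after its values were seen), and lowered the cyclin CCNE2 in Jurkat (-1.64 ± 0.34, adjusted p = 0.0267). With PMA 2 of 14 fell in Jurkat, CCNA2 (-1.52 ± 0.22, adjusted p = 0.0082) and TYMS (-0.95 ± 0.18, adjusted p = 0.0279), and none passed in J-Lat A2. The medians of the list were 0.05 and 0.21 with SAHA and -0.33 and -0.34 with PMA in J-Lat A2 and Jurkat. CXCR4, a chemokine receptor that HIV uses for entry, passed the filter on low counts, and CD4, the primary entry receptor, did not. CXCR4 fell with PMA in both lines, from 605 ± 18.4 to 133.4 CPM in J-Lat A2 (-2.20 ± 0.22, adjusted p = 0.000908) and from 533 ± 11.1 to 48.3 CPM in Jurkat (-3.48 ± 0.23, adjusted p = 0.000207).

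Among 5912 genes with a mean of at least 20 CPM, those whose pattern over the 9 sums was most like that of IFITM1, IFITM2 or APOBEC3G were picked by Pearson's r of log2(CPM + 1). For IFITM2 they were CNPY3, IKZF1 and TMBIM4 (r of 0.98 each), and for IFITM1 TMEM192, PFDN1 and WRAP73 (0.92 to 0.93). For APOBEC3G they were SMIM3, TRAV8-4 and TOX (0.92 to 0.93). With 9 points that share groups and batches, and so many candidates, high values of r are found for most patterns, and the lists only describe.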

How the data were processed

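The authors deposited 1 table of expected counts for each gene in each well, with no scaling to depth. Salmon 1.5.1, alevin and GRCh38.p13 are listed in the submitters' processing notes, with no role. Library primers carry no molecular identifier per the labels' protocols, so counts are reads after amplification, and the handling of reads that match several genes was not given in the sources used here. Wells with at least 1/10 of their plate's median total and at least 500 genes were kept (410 of 480). Plates were assigned to batches from the study's 2 and 3 plates per batch and the runs of plate names. Expected counts were summed per group and batch and rounded to whole numbers. R 4.3.3 with edgeR 4.0.16 was used: TMM scaling, filterByExpr (13558 genes), a quasi-likelihood model of group plus batch (2 residual degrees of freedom), and two-sided F tests, adjusted over all tested genes by Benjamini-Hochberg. SE is the size of the log2 change divided by the root of F. The labels do not say whether batches or plates were separate cultures, so p-values measure only the spread between these sums, which may be technical. Intervals and limits for counts of 0 (3 counts) cover counting error only. The floor of 3 counts used for levels takes reads as independent, which reads after amplification are not.

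All 10 members are named. Of each other list up to 4 called genes with the largest change and a mean of at least 20 CPM are named per comparison with DMSO, and any called gene below that level that is named was picked after its values were seen. The members and lists were chosen with earlier results of these data known. Promoter windows come from RefSeq. The tests were tried on simulated data. Alternatives were DESeq2 1.42.0, its size factors in edgeR, no filter, all wells, equal weight per well with limma 3.58.1 (pseudocount 1), plates as units with a plate term, the second batch alone, no batch term, each sum left out, IFITM genes added together and thinned wells (Python 3.11.15, scipy 1.17.1). Some results on other genes are not reported here.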

Additional observations from a re-analysis of the deposited data

Results flagged for a closer look

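In 25 combinations of a gene and a group with 5 plates, 5 plate sums stood apart from the other 4 by Dixon's criterion, where chance flags about 1 in 20. That rate does not hold for sums this sparse: for APOBEC3G and MX2 the other 4 sums were 0, so any read would have stood apart. The APOBEC3C sum of J-Lat A2 with SAHA on 1 plate of the second batch was 15.9 CPM, against 1.94 on 1 plate and 0 on the other 3, and 5 of its 22 wells held a read. The APOBEC3G sum of J-Lat A2 with DMSO on 1 plate of the first batch was 3.42 CPM, all from 1 well, against 0 on the others. The IFITM1 sum of J-Lat A2 with DMSO on 1 plate of the second batch was 71.4 CPM, against 16.98 to 27.2 on the others, with a read in 6 of 12 wells. The MX2 sum of Jurkat with DMSO on 1 plate of the second batch was 1.17 CPM, 4 counts from 1 well, against 0 on the others. The TRIM5 sum of J-Lat A2 with DMSO on 1 plate of the first batch was 11.4 CPM, against 0 to 2.59 on the others, with a read in 7 of 29 wells.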

How the results depend on the processing

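The members called with SAHA in J-Lat A2 numbered 3 and were 3 or 4 under every other alternative except 2 kinds: equal weight per well with limma called 0 (it called 0 of all genes), and leaving out each sum gave 1 to 5. With PMA in J-Lat A2 the 1 call became 0 with DESeq2, limma, the second batch alone and no batch term, and 0 to 1 with a sum left out. With SAHA in Jurkat the count of 0 became 1 (IFITM2) with DESeq2 and with plates as units. With PMA in Jurkat the 1 call became 0 with limma and with no batch term, 2 (APOBEC3G and SERINC5) with plates as units and with the second batch alone, and 0 to 2 with a sum left out. DESeq2 also called 1 there, but SERINC5 in place of APOBEC3G. Between the lines the count of 0 became 2 with DESeq2, and 0 to 1 with a sum left out. The interactions gave 0 throughout. Most of these counts are given without the share of all genes called under the alternative. They describe only how the calls depend on the processing. Of 72 values of called members under an alternative, 49 kept their side of the threshold, 23 lost it and none changed sign. IFITM1 with SAHA in J-Lat A2 passed in 12 of 14 alternatives and IFITM2 in 13 of 14. The cause of these changes was not tested. Where a sum was left out of a group with 2, its lone sum was assumed to vary like the others. Depth limits the scarce genes: APOBEC3G and MX2 had reads in 26 and 22 of 410 wells.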
